A study of Mus musculus with 6 samples.

Results

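Expression of 10 mouse genes of TNF, IL-1 and NF-kB signalling was examined in the trigeminal ganglion, which holds the sensory neurons of the head, after an inflammatory injection. The genes were taken by name: the TNF receptors Tnfrsf1a and Tnfrsf1b, the IL-1 receptor subunits Il1r1 and Il1rap, the NF-kB subunits Rela, Nfkb1 and Nfkb2, and the regulators Nfkbia, Nfkbiz and Tnfaip3. Of these 10 genes, 9 were found among the 13673 rows of the expression table and all 9 passed the filter on low values. Tnfaip3, which encodes the ubiquitin-editing inhibitor A20, was not analysed here. The ganglia came from wild-type mice injected with CFA (complete Freund's adjuvant, mycobacterial material in oil that inflames the injected tissue) or from wild-type mice injected with saline, in both cases at day 3, with 3 libraries per group. The labels describe the cells as neurons and glia, and the sources used here do not give the strain, sex, age or injection site of the mice. Single animals are not named, so each p-value reflects only how these libraries spread, which may be technical.

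TNF and IL-1 are early cytokines of inflammation that act through separate receptors on a shared route to the nucleus. Both receptor types recruit adaptor proteins that activate the IKK kinase complex, which marks the inhibitor IkB-alpha for degradation and so frees NF-kB dimers to enter the nucleus. NF-kB then switches on target genes, among them those of its own inhibitors, which end the response. In sensory ganglia, TNF and IL-1 are known to be released by immune cells and satellite glia and to raise the excitability of nociceptors. The mRNA level of a pathway gene does not measure the activity of the pathway, which is set largely by phosphorylation and degradation of proteins.

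Promoter sequence is shown because NF-kB binds DNA at kB sites and several of these genes are known NF-kB targets themselves. Of the 10 genes, 8 had an entry in RefSeq's promoter windows (GRCm38.p6), with 12 windows in all, and the 250 bases before each start were searched on both strands for GGGNNNNNCC and for the narrower GGGNNTTTCC. Every match to the narrower pattern is also a match to the wider. The wider pattern was present in 11 of the 12 windows and in 45.8% of all 32851 windows of the same length. The narrower was present in 4 of the 12 windows and in 1.41% of all windows. Its 4 matches, at Nfkbia, 2 starts of Nfkb2 and 1 start of Tnfaip3, are printed with up to 10 bases on each side, read on the strand of the match, with the match in capitals.
Nfkbia, chr12:55492667-55492676, plus strand: gtcaggcgcgGGGAATTTCCaagccagtca
Nfkb2, start 1, chr19:46304726-46304735, plus strand: ggggccgaaaGGGGCTTTCCc
Nfkb2, start 3, chr19:46305705-46305714, plus strand: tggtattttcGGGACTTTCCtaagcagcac
Tnfaip3, start 2, chr10:19015413-19015422, plus strand: agGGGGATTTCCgatggaaatt
The window of Nfkbia is shown whole because Nfkbia had the smallest p of the 9 genes. It is chr12:55492648-55492897 on the minus strand, read 5′ to 3′ toward the gene, with both matches to the wider pattern in capitals.
Nfkbia promoter: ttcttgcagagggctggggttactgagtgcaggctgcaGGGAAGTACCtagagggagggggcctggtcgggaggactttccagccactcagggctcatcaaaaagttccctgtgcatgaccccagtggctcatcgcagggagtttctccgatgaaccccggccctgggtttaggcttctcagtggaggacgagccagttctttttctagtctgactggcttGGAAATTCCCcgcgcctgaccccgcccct
The second of these capital stretches is the narrower match seen from the other strand and ends 19 bases before the window's end. A match describes letters and not binding, which was not measured.

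Values are FPKM (fragments counted per kilobase of transcript and relative to mapped fragments), as the authors deposited them. A log2 fold change is the limma estimate of CFA minus saline in log2(FPKM + 1), with its standard error (SE), and adjusted p-values are Benjamini-Hochberg values over the 12238 genes tested. FPKM totals ran from 261183 to 275152 per library, which are not read depths, and the depth is unknown. The 10 sensory neuron, 8 satellite glia and 8 Schwann cell markers all had a row, none with a 0. Satellite glia markers summed to 1725 to 2210 FPKM in CFA libraries and 1183 to 1512 FPKM in saline libraries. In mean, 6 of 8 were higher. At an unadjusted p below 0.05 stood 5 of 8, against 8.32% of all genes tested, among them Cdh19, which was lower. The 8 central glia markers summed to 88.2 to 111.8 FPKM in CFA libraries and 60.04 to 72.7 FPKM in saline libraries. In mean, 8 of 8 were higher, 6 of them at an unadjusted p below 0.05, where 5.37% of all genes tested were. limma called none of these glial markers, and their part in the results on the members was not tested. Libraries stood apart in neutrophil markers, whose 12 genes summed to 336 FPKM in CFA replicate 2 and 589.8 FPKM in saline replicate 3, against 60.5 to 87.1 FPKM in the other 4 libraries. In these bulk libraries, fewer cells of a type and less RNA per cell cannot be told apart.

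None of the 9 genes passed the threshold between CFA and saline ganglia. The closest was Nfkbia, the gene of IkB-alpha, at 32.5 ± 2.34 FPKM in CFA ganglia and 44.0 ± 4.55 FPKM in saline ganglia (SD, n = 3 each). Il1r1, the signalling IL-1 receptor, had lower values in all CFA libraries as well, at 1.62 ± 0.289 FPKM in CFA ganglia and 2.17 ± 0.343 FPKM in saline ganglia. The other 7 genes overlapped between the groups. limma called 0 of the 9 genes at an adjusted p below 0.05, a threshold passed by 0.0572% of all genes tested. At an unadjusted p below 0.05 stood 1 of the 9, against 8.32% of all genes, and the groups did not overlap in 2 of the 9, against 14.5% of all genes. With 9 genes, shares of this size are near the background and are no result about the members. The median log2 fold change was −0.06 over the 9 genes and 0.0052 over all genes tested.

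**Figure D1:**
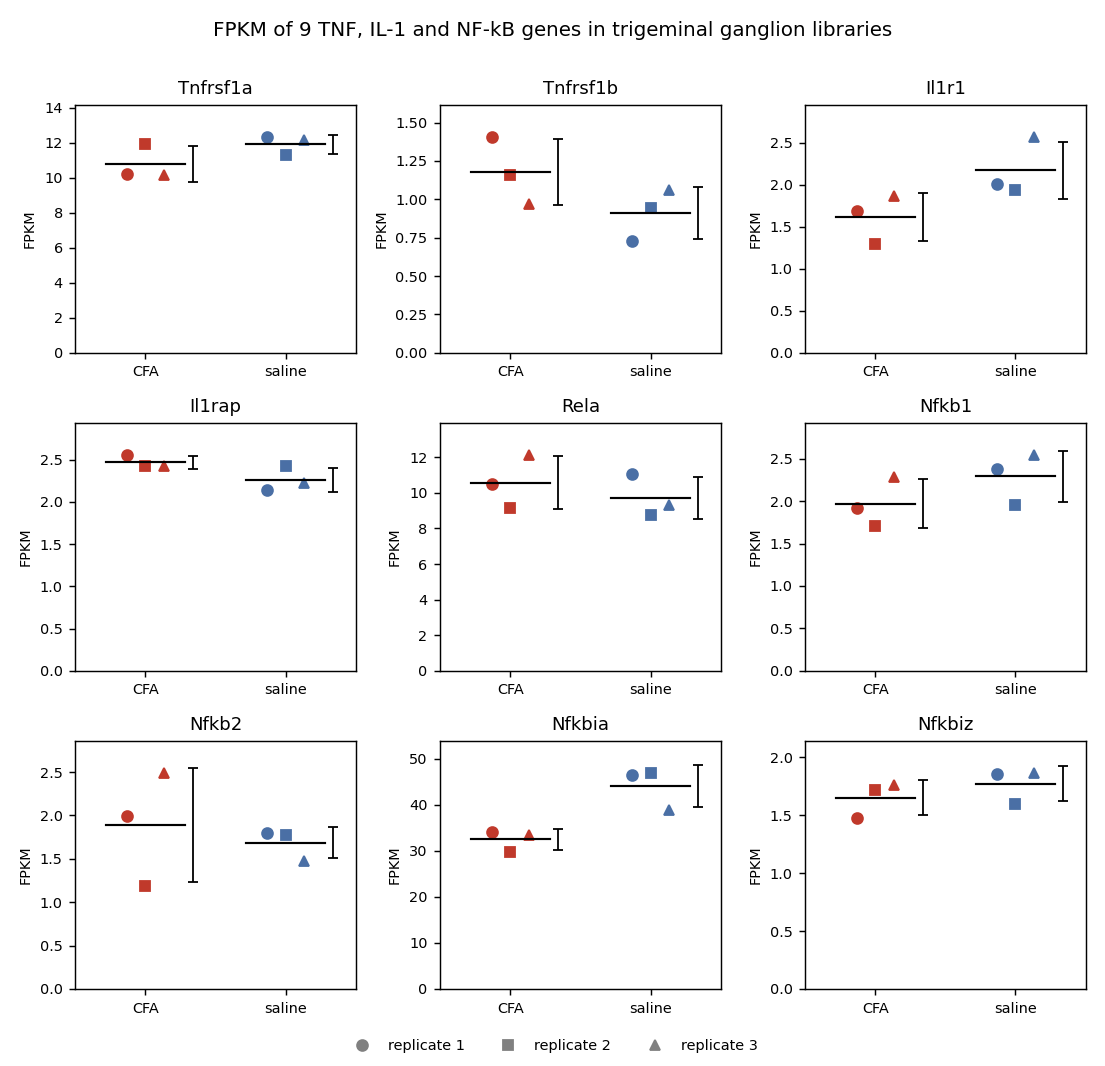
FPKM of the 9 genes in each library (vertical axes, linear from 0), with CFA libraries left and saline libraries right; symbols mark the replicate number, horizontal lines the group mean and bars ± SD (n = 3). Nfkbia and Il1r1 are the panels in which all CFA points lie below all saline points.

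Among the receptors, Tnfrsf1a encodes TNFR1, the widely expressed receptor whose death domain recruits the adaptor TRADD. It stood at 10.2, 12.0 and 10.2 FPKM in the CFA libraries and at 12.3, 11.3 and 12.2 FPKM in the saline libraries. CFA replicate 2 lay within the range of the saline libraries and the other 2 CFA libraries lay below it. For Tnfrsf1a the estimated log2 fold change was −0.14 (SE 0.0892, 95% interval −0.35 to 0.077, limma adjusted p = 0.703), and −0.21 without CFA replicate 2. Tnfrsf1a lies on chromosome 6 at 125349362 to 125362484 (GRCm38).

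Tnfrsf1b encodes TNFR2, a receptor without a death domain that is most abundant on immune and endothelial cells and binds membrane-bound TNF well. Its values were 1.40, 1.16 and 0.973 FPKM in the CFA libraries and 0.725, 0.944 and 1.06 FPKM in the saline libraries. The highest value was in CFA replicate 1 and the lowest in saline replicate 1, and the groups overlapped. For Tnfrsf1b limma estimated a log2 fold change of 0.19 (SE 0.119, 95% interval −0.097 to 0.47, limma adjusted p = 0.694), or 0.34 with a pseudocount of 0.1 in place of 1 and 0.12 without saline replicate 1. At a mean of 1.04 FPKM over the 6 libraries Tnfrsf1b was just above the minimum of 1 FPKM for testing. It lies on chromosome 4 at 145213463 to 145246870.

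Tnfrsf1b is known from macrophages. Of 12 macrophage markers, 11 had a higher mean in CFA ganglia, their sum ran from 161 to 182 FPKM in CFA libraries and from 114 to 123 FPKM in saline libraries, and no marker was listed at 0. None of the 11 tested was called by limma. The groups did not overlap in 7 of these 11, all higher in CFA libraries, where 7.89% of all genes tested were. At an unadjusted p below 0.05 stood 8 of the 11, against 8.32% of all genes. Of these 8, 7 were higher and 1, Cd163, was lower, with a mean of 1.41 FPKM in CFA and 2.24 FPKM in saline ganglia. The list was chosen with earlier results of these data known. The part of these markers in the values of Tnfrsf1b was not tested.

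Il1r1 encodes the receptor that binds IL-1 alpha and IL-1 beta. Its values were 1.69, 1.30 and 1.87 FPKM in the CFA libraries and 2.004, 1.94 and 2.57 FPKM in the saline libraries. All 3 CFA libraries lay below all 3 saline libraries, with the narrowest gap between CFA replicate 3 and saline replicate 2. The log2 fold change was −0.28 (SE 0.128, 95% interval −0.58 to 0.028, limma adjusted p = 0.621). CFA replicate 2 held the lowest value and saline replicate 3 the highest, the same 2 libraries that were high in neutrophil markers, and without both the log2 fold change was −0.10. Il1r1 lies on chromosome 1 at 40225080 to 40317257.

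Il1r1 is known from endothelial cells and fibroblasts. The 8 endothelial markers summed to 24.3 to 26.1 FPKM in CFA libraries and 21.9 to 25.4 FPKM in saline libraries, with 5 of 8 higher in mean. The 8 fibroblast and meningeal markers summed to 366 to 424 FPKM in CFA libraries and 438 to 473 FPKM in saline libraries, with 4 of 8 higher in mean. Ogn, singled out after its values were seen, gave 144.5 to 179.7 FPKM in CFA libraries and 202.8 to 239.1 FPKM in saline libraries, and the sums of the other 7, 205 to 244 FPKM in CFA libraries and 226 to 236 FPKM in saline libraries, overlapped. At an unadjusted p below 0.05 stood 4 of these 8, against 8.32% of all genes tested. They were Ogn, which was lower, and Col1a1, Col3a1 and Fmod, which were higher in all CFA libraries. limma called no marker of either list. No marker of either list was at 0, and their part in the values of Il1r1 was not tested.

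Il1rap encodes the accessory chain that Il1r1 needs to signal, and which other receptors of the IL-1 family share. It stood at 2.55, 2.43 and 2.42 FPKM in the CFA libraries and at 2.14, 2.42 and 2.22 FPKM in the saline libraries. Saline replicate 2 lay between CFA replicates 2 and 3, so the groups overlapped by a narrow margin. The estimate on the log2 scale was 0.09 (SE 0.0848, 95% interval −0.11 to 0.29, limma adjusted p = 0.763). Il1rap lies on chromosome 16 at 26581704 to 26730117. The gene model Gm20319, on the other strand, shares exonic bases with it, and the sources used here do not say whether quantification used strand.

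Among the NF-kB subunits, Rela encodes p65, the subunit with the transactivation domain in the classical dimer. It stood at 10.5, 9.13 and 12.1 FPKM in the CFA libraries and at 11.03, 8.76 and 9.29 FPKM in the saline libraries. The highest value was in CFA replicate 3 and the lowest in saline replicate 2, with overlap of the groups. The log2 fold change was 0.11 (SE 0.128, 95% interval −0.19 to 0.42, limma adjusted p = 0.798). It was 0.02 without CFA replicate 3, 0.05 without saline replicate 2, 0.20 without CFA replicate 2 or without saline replicate 1, and −0.0069 without both libraries numbered 3. Rela lies on chromosome 19 at 5637483 to 5648130.

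Nfkb1 encodes p105, which is processed to the p50 partner of p65. Its values were 1.91, 1.71 and 2.29 FPKM in the CFA libraries and 2.38, 1.96 and 2.54 FPKM in the saline libraries. The groups overlapped through CFA replicate 3 and saline replicate 2. For Nfkb1 limma gave a log2 fold change of −0.15 (SE 0.118, 95% interval −0.43 to 0.13, limma adjusted p = 0.730). It was −0.08 without CFA replicate 2, −0.09 without saline replicate 3, and −0.22 without CFA replicate 3 or without saline replicate 2. Nfkb1 lies on chromosome 3 at 135584655 to 135691547.

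Nfkb2 encodes p100, the precursor of p52 in the alternative NF-kB pathway. Its values were 1.996, 1.19 and 2.49 FPKM in the CFA libraries and 1.79, 1.78 and 1.48 FPKM in the saline libraries. The CFA libraries held both the highest and the lowest of the 6 values, and their coefficient of variation was 34.6%, against 10.6% in saline libraries. The log2 fold change was 0.08 (SE 0.178, 95% interval −0.34 to 0.51, limma adjusted p = 0.903) and had the other sign without CFA replicate 3 (−0.065) and without both libraries numbered 3 (−0.12). Nfkb2 lies on chromosome 19 at 46304737 to 46312090 in the deposited data. GENCODE M21 gives it other coordinates, and in that annotation its exons overlap those of Psd and AC114539.1 on the other strand.

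In 4 of the 9 genes, Rela, Nfkb1, Nfkb2 and Il1r1, CFA replicate 3 was the highest CFA library and CFA replicate 2 the lowest. They are grouped here after their values were seen. The other 5 had other orders: CFA replicate 1 was highest for Nfkbia, Tnfrsf1b and Il1rap, CFA replicate 2 for Tnfrsf1a and CFA replicate 3 for Nfkbiz. Among the saline libraries these 4 genes did not share 1 order: replicate 3 was highest for Nfkb1 and Il1r1 and lowest for Nfkb2. From high to low, saline replicates ran 3, 1, 2 for Nfkb1, Il1r1 and Nfkbiz, and replicate 2 was also lowest for Rela and Tnfrsf1a. How many of all genes share these orders was not computed.

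Nfkbia encodes IkB-alpha, which binds NF-kB dimers and holds them in the cytoplasm. Its values were 34.1, 29.8 and 33.4 FPKM in the CFA libraries and 46.4, 46.8 and 38.7 FPKM in the saline libraries. The highest CFA library lay below the lowest saline library, which was saline replicate 3. The CFA mean was 0.738 times the saline mean. The log2 fold change was −0.42 (SE 0.101, 95% interval −0.67 to −0.18), with an unadjusted p of 0.00453 and a limma adjusted p of 0.312, so that it did not pass over all genes. Its unadjusted p had rank 178 among the 12238 genes. Groups with all CFA libraries lower were found in 6.66% of all genes tested. Without CFA replicate 2 and saline replicate 3, the libraries high in neutrophil markers, the log2 fold change was −0.45 (limma adjusted p = 0.30). Nfkbia lies on chromosome 12 at 55489410 to 55492647.

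Nfkbia is known to be transcribed in response to NF-kB and, in many cell types, in response to glucocorticoids. Of 13 glucocorticoid-responsive genes, a list chosen with earlier results of these data known, all had a lower mean in CFA ganglia. At an unadjusted p below 0.05 stood 9 of the 13, where 2.95% of all genes tested were lower at that p. The groups did not overlap in 9 of the 13, all lower (6.66% of all genes). They overlapped for Errfi1, Tsc22d3, Zbtb16 and Cdkn1a. The 13 genes summed to 339 to 399 FPKM in CFA libraries and 563 to 586 FPKM in saline libraries, and none was listed at 0. Sgk1, a kinase gene induced by glucocorticoids, had the smallest p of the 13. It stood at 16.4, 15.9 and 14.5 FPKM in CFA libraries and 25.9, 29.3 and 26.3 FPKM in saline libraries. None of the 13 genes was called by limma in the main fit. With robust variances 1 of 13 was called (13 genes of the whole table were), and with a minimum of 5 FPKM 1 of 12 (10 genes were). The part of these genes in the values of Nfkbia was not tested.

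Nfkbiz encodes IkB-zeta, a nuclear protein that is induced by IL-1 and helps NF-kB to switch on secondary target genes. Its values were 1.48, 1.72 and 1.76 FPKM in the CFA libraries and 1.86, 1.60 and 1.86 FPKM in the saline libraries. Saline replicate 2 lay below 2 of the CFA libraries, so the groups overlapped. This gave a log2 fold change of −0.06 (SE 0.0959, 95% interval −0.29 to 0.17, limma adjusted p = 0.848), with −0.015 without CFA replicate 1 and −0.11 without saline replicate 2. Nfkbiz lies on chromosome 16 at 55811375 to 55838899.

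**Figure D2:**
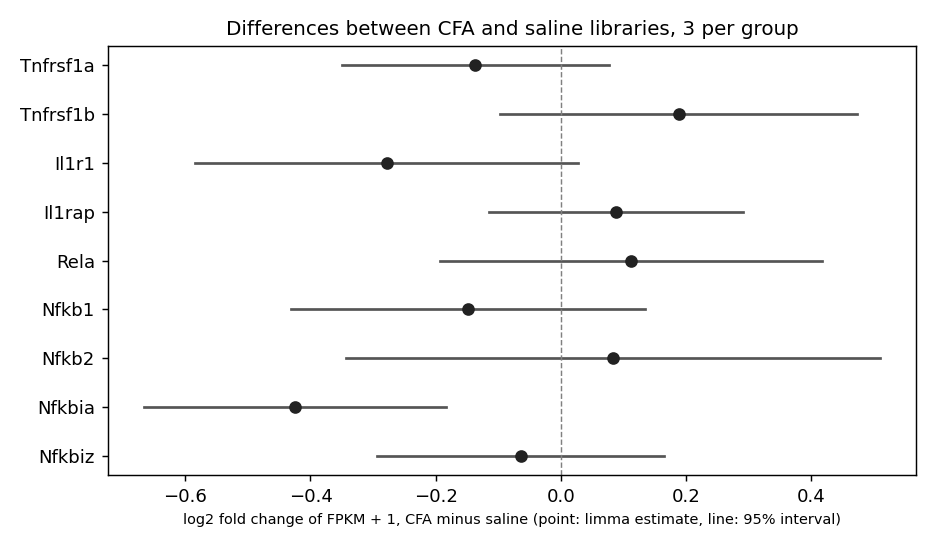
Log2 fold change of FPKM + 1 (horizontal axis, CFA minus saline) for the 9 genes, with points at the limma estimate and lines for its 95% interval without adjustment for multiple genes. The interval of Nfkbia, from −0.67 to −0.18, does not reach 0, and the other 8 intervals cover 0.

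In order of level, the range over the 6 libraries was apart from that of the next gene at 3 places. Nfkbia was highest, with a mean of 38.2 FPKM over the 6 libraries. Tnfrsf1a (11.4 FPKM) and Rela (10.1 FPKM) followed, and their ranges overlapped, with Tnfrsf1a higher in 4 of 6 libraries. Below a gap of 4.29-fold stood Il1rap (2.36 FPKM), Nfkb1 (2.13 FPKM), Il1r1 (1.89 FPKM), Nfkb2 (1.79 FPKM) and Nfkbiz (1.71 FPKM), where the range of each gene overlapped that of the next. Tnfrsf1b (1.04 FPKM) was below Nfkbiz in every library and their ranges did not overlap, while its highest value, 1.40 FPKM in CFA replicate 1, was above the lowest of Nfkb2 and Il1r1, 1.19 and 1.30 FPKM in CFA replicate 2. FPKM is scaled to transcript length, so these levels can be set side by side, although the number of annotated transcripts differs, from 2 for Nfkbia and Tnfrsf1b to 10 for Nfkb1.

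Ratios within a library do not move with the scaling of that library, and 2 of them were tested. The ratio of Tnfrsf1b to Tnfrsf1a was 0.137, 0.0968 and 0.0955 in the CFA libraries and 0.0589, 0.0834 and 0.0874 in the saline libraries. All CFA ratios were above all saline ratios, and the mean difference in log2 ratio was 0.52, or 0.32 with a pseudocount of 1. The ratio of Il1rap to Il1r1 was 1.51, 1.87 and 1.30 in the CFA libraries and 1.07, 1.25 and 0.866 in the saline libraries, a mean difference in log2 ratio of 0.56 without overlap, or 0.37 with a pseudocount of 1. Each gave p = 0.1 in a two-sided exact permutation test, which is the smallest p that 3 libraries against 3 allow, so this design cannot call them. The difference of the TNF receptor ratio was 0.35 without CFA replicate 1 and 0.34 without saline replicate 1. For Il1rap to Il1r1, CFA replicate 2 held the highest ratio and saline replicate 3 the lowest. That difference was 0.42 without either of these libraries, which were high in neutrophil markers, and was not computed without both.

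Another ratio, of Nfkbia to Rela, was chosen after its values were seen and is given without a test. It sets the inhibitor's mRNA against that of the subunit it binds. It stood at 3.26, 3.26 and 2.76 in the CFA libraries and at 4.21, 5.34 and 4.17 in the saline libraries. All CFA ratios were below all saline ratios.

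**Figure D3:**
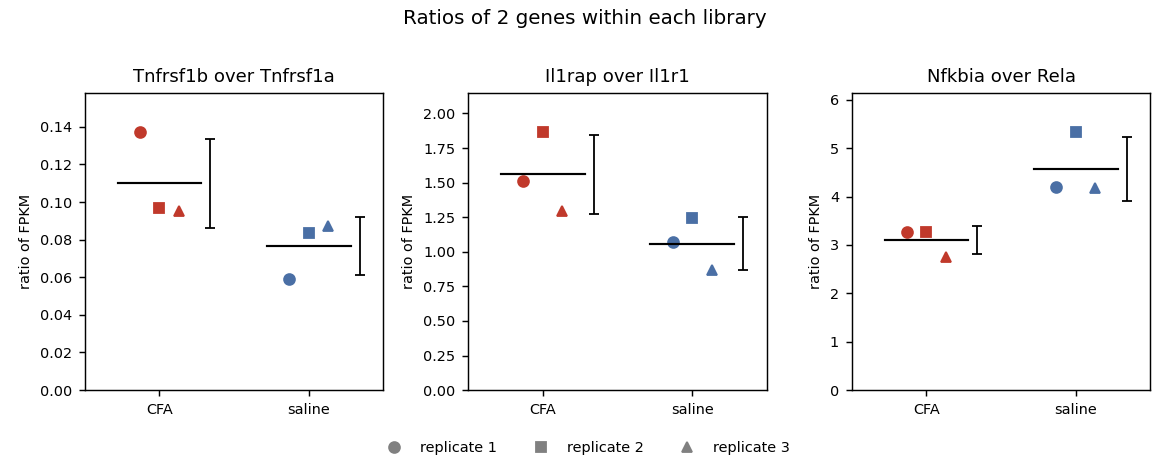
Ratio of FPKM of 2 genes within each library (vertical axes, linear from 0), CFA left and saline right, with lines at the group mean and bars for ± SD (n = 3). CFA points lie above saline points for Tnfrsf1b over Tnfrsf1a and for Il1rap over Il1r1, and below them for Nfkbia over Rela.

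Around the 9 genes, 110 other genes of the pathway were listed in 8 groups by role, of which 73 were tested. The groups share genes: of those tested, Relb, Nfkbie and Birc3 are also in the list of NF-kB targets and are counted once here. None of the 73 was called by limma. At an unadjusted p below 0.05 stood 8 of 73 (11%, against 8.32% of all genes tested). Of these 8, 4 were higher in CFA ganglia, where 5.37% of all genes were, and 4 were lower, where 2.95% were. The groups did not overlap in 13 of 73 (17.8%, against 14.5%), with CFA higher in 7 (7.89% of all genes) and lower in 6 (6.66%). The median log2 fold change over the 73 was −0.03, and 0.0053 without saline replicate 3. These shares are near those of all genes. The 8 became 1 of 71 without CFA replicate 1 (5.02% of all genes in that fit), 4 of 71 without saline replicate 2 (5.87%) and 4 of 70 without saline replicate 3 (6.55%). Without both libraries high in neutrophil markers they were 5 of 71 (9.58%), and the median was 0.02.

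The ligand genes Tnf, Il1a and Il1b were not analysed here. Of 18 genes listed as TNF superfamily ligands and other receptors, 9 were tested, among them the protease gene Adam17. Of these, 2 were higher (5.37% of all genes) and 1 was lower (2.95%) with an unadjusted p under 0.05. These 3 became 0 without CFA replicate 1 or without CFA replicate 3, and 1 without saline replicate 2 or saline replicate 3. Ltbr, the lymphotoxin beta receptor of the alternative NF-kB pathway, stood at 8.43, 8.26 and 9.20 FPKM in CFA libraries and 7.60, 6.66 and 7.14 FPKM in saline libraries (limma adjusted p = 0.558). Tnfrsf19, an orphan TNF receptor family member, stood at 1.75 ± 0.148 FPKM in CFA ganglia and 1.27 ± 0.242 FPKM in saline ganglia (limma adjusted p = 0.591). Fas, the death receptor, was lower in all CFA libraries, at 1.27, 1.86 and 1.18 FPKM against 2.01, 2.06 and 2.31 FPKM in saline libraries (limma adjusted p = 0.558). The receptors Ngfr (79.9 FPKM in CFA and 72.7 FPKM in saline ganglia) and Tnfrsf21 (43.9 FPKM in CFA and 47.6 FPKM in saline ganglia), named after their values were seen, had the highest levels of this group and overlapped between groups.

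Of 13 genes listed as other IL-1 family ligands and receptors, 4 were tested and none had an unadjusted p below 0.05. They were Il18, Il33, Il18bp, which encodes a binding protein of IL-18, and the protease gene Casp1. The receptor genes of this list, such as Il1r2, Il1rl1 and Il18r1, were not analysed here. The alarmin Il33 averaged 9.70 FPKM in CFA and 9.58 FPKM in saline ganglia, and Il18 averaged 8.52 FPKM in CFA and 8.60 FPKM in saline ganglia. Of 11 adaptors and kinases of the IL-1 receptor, 10 were tested, 3 higher and 7 lower in mean log2 value, and none had an unadjusted p below 0.05. In 3 of these 10 the groups did not overlap, against 14.5% of all genes tested. The shared adaptor Myd88 was higher (4.22 ± 0.486 FPKM in CFA and 3.53 ± 0.361 FPKM in saline ganglia). The inhibitory kinase-like Irak3 (1.19 FPKM in CFA and 1.54 FPKM in saline ganglia) and the ubiquitin ligase Peli2 (5.69 FPKM in CFA and 6.61 FPKM in saline ganglia) were lower. These 3 genes were named after their values were seen.

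In the kinase group, 9 of 12 genes were tested and 7 of these were lower in mean log2 value. Of the 7, 2 were at an unadjusted p below 0.05, where 2.95% of all genes were lower. Map3k7 encodes TAK1, the kinase that activates IKK downstream of both receptor types. It stood at 5.52, 4.26 and 8.74 FPKM in the CFA libraries and at 9.65, 9.65 and 9.70 FPKM in the saline libraries. The CFA libraries were spread widely and the saline libraries lay within a narrow range (log2 fold change −0.62, SE 0.214, limma adjusted p = 0.558). Tab3, which encodes a subunit that couples TAK1 to ubiquitin chains, stood at 7.06, 8.52 and 7.05 FPKM in the CFA libraries and 8.96, 9.60 and 10.7 FPKM in the saline libraries (limma adjusted p = 0.507). The IKK catalytic subunit genes Chuk (6.97 FPKM in CFA and 7.85 FPKM in saline ganglia) and Ikbkb (1.60 FPKM in CFA and 1.54 FPKM in saline ganglia) overlapped between groups. Ikbkg, the gene of the regulatory subunit, overlapped as well. It stood at 0.370, 0.293 and 0.610 FPKM in CFA libraries and 0.246, 3.30 and 2.16 FPKM in saline libraries (log2 fold change −0.86, SE 0.432, limma adjusted p = 0.635). The median log2 fold change of the kinase group was −0.15, and −0.03 without CFA replicate 1. The 2 genes at an unadjusted p below 0.05 became 0 without CFA replicate 1 or without saline replicate 3, and 1 without CFA replicate 2, CFA replicate 3 or saline replicate 2.

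All 14 ubiquitin editors of the pathway were tested. At an unadjusted p below 0.05 stood 1 of the 14 (7.14%, against 8.32% of all genes tested), and 0 without CFA replicate 1. Otud7b, a deubiquitinase known to restrain the alternative NF-kB pathway, was lower in all CFA libraries, at 14.3 ± 0.742 FPKM in CFA ganglia and 17.3 ± 1.02 FPKM in saline ganglia (limma adjusted p = 0.476). Of 12 TNF receptor adaptors and death domain proteins, 8 were tested and none had an unadjusted p below 0.05. The groups did not overlap in 1 of these 8 (12.5%, against 14.5% of all genes tested). It was Tradd, the adaptor of TNFR1, at 7.53 FPKM in CFA and 6.18 FPKM in saline ganglia, a gene named after its values were seen. Of the 6 further NF-kB subunits and IkB proteins, 4 were tested and all 4 had a higher mean log2 value in CFA ganglia, none at an unadjusted p below 0.05. Relb, the partner of p52, averaged 1.87 FPKM in CFA and 1.28 FPKM in saline ganglia, and Nfkbib, which encodes IkB-beta, averaged 12.6 FPKM in CFA and 12.5 FPKM in saline ganglia.

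Of 28 genes known as NF-kB targets, 18 were tested, 9 higher and 9 lower in mean log2 value, with a median log2 fold change of 0.0016. At an unadjusted p below 0.05 stood 2 of the 18, both higher, where 5.37% of all genes were. This count was 1 without CFA replicate 1, CFA replicate 2 or saline replicate 2, 3 without saline replicate 1, and 4 without CFA replicate 3, of which 1 was lower. Csf1, the macrophage growth factor, stood at 4.75, 5.06 and 5.01 FPKM in the CFA libraries and at 3.51, 3.62 and 3.37 FPKM in the saline libraries. All CFA values were above all saline values (log2 fold change 0.40, SE 0.0793, limma adjusted p = 0.221), and it had the smallest p of the 73 genes. Cxcl10, a chemokine that interferons also induce, averaged 2.55 ± 0.329 FPKM in CFA ganglia and 1.86 ± 0.313 FPKM in saline ganglia (limma adjusted p = 0.580), and Art3 on the other strand shares exonic bases with it. Sdc4, which encodes the proteoglycan syndecan-4, had all CFA values (36.1, 31.7 and 32.9 FPKM) above all saline values (31.1, 28.9 and 31.0 FPKM) at an unadjusted p of 0.112 (limma adjusted p = 0.657). Csf1, Cxcl10 and Sdc4 were the 3 of 18 without overlap of the groups (16.7%, against 14.5% of all genes tested). The groups overlapped for the other 15 tested targets, such as Sod2 (25.6 FPKM in CFA and 27.0 FPKM in saline ganglia), Vcam1 (2.08 FPKM in both) and Gadd45b (8.88 FPKM in CFA and 8.86 FPKM in saline ganglia). The part of the macrophage markers given above in the values of Csf1 and Cxcl10 was not tested.

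**Figure D4:**
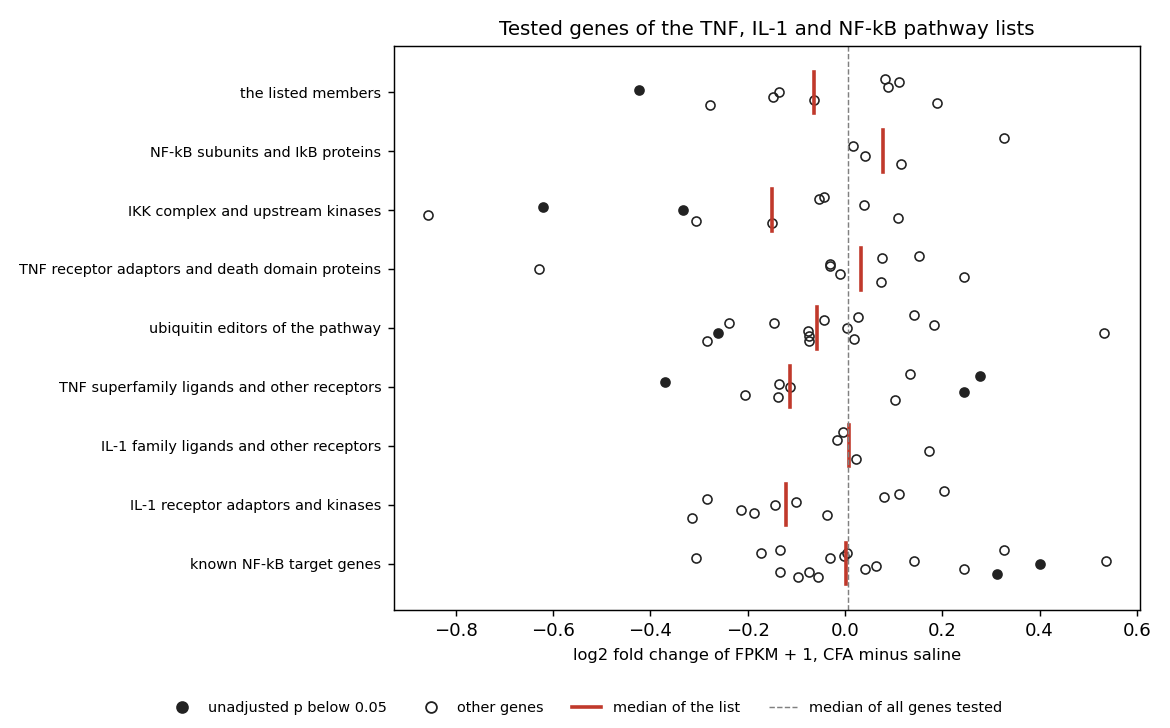
Log2 fold change of FPKM + 1 (horizontal axis, CFA minus saline) for each tested gene of the listed members and of the 8 other pathway lists; filled points have an unadjusted p below 0.05, red bars are list medians and the dashed line is the median of all 12238 genes tested. Points of each list lie on both sides of 0 except those of the 4 further NF-kB subunits and IkB proteins, which lie above it. Relb, Nfkbie and Birc3 are drawn in each list that holds them.

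Nfkbia was both the member with the smallest p and the most abundant, so likeness was computed for it alone, as Pearson's r of log2(FPKM + 1) over the 6 libraries. The 3 most similar genes were Park2, which encodes the ubiquitin ligase parkin (r = 0.976), Chd9, which encodes a chromatin remodeller (r = 0.974), and Ddit4, a stress-induced inhibitor of mTORC1 (r = 0.973). Ddit4 stood at 36.1, 31.5 and 32.1 FPKM in the CFA libraries and at 46.8, 48.5 and 37.4 FPKM in the saline libraries. In all 3 genes, as in Nfkbia, all CFA values lay below all saline values. The difference between the groups was not removed before r was computed, so it is part of r. Genes known only as predictions were left out, and these values are a description only.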

How the data were processed

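RNA of 6 trigeminal ganglion libraries was measured by poly(A)-selected stranded RNA sequencing, per the labels' protocols. The authors deposited FPKM per gene, per the file headers, with GRCm38 named as the build in the submitters' processing notes. The aligner, quantification tool and annotation release were not given in sources used here. In every row the larger group mean was at least 0.501 FPKM. A search for whole-read steps in 300 low values per library gave strengths of at most 0.183, where 1 would mean whole multiples, so depth is unknown and no counting interval is given.

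Genes whose 6 values averaged 1 FPKM or more were compared with limma 3.58.1 in R 4.3.3 (lmFit, eBayes with trend) on log2(FPKM + 1), which understates changes of low genes. No covariate was used. The functions were tested on simulated data. Transcripts and exon overlaps came from GENCODE M21 (GRCm38). Figures were drawn with matplotlib 3.10.9. The members and all gene lists were chosen with earlier results of these data known. Named genes were the members, pathway genes at an unadjusted p below 0.05 without overlap of groups (at most 20), 3 ligands and the 3 genes most like Nfkbia. All other genes given as examples of a list were named after their values were seen. Alternatives were other pseudocounts, filters, scalings and variance models, a replicate block, and fits without libraries.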

Additional observations from a re-analysis of the deposited data

How the results depend on the processing

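Under none of 17 alternatives was any of the tested members called by limma, where 5 to 19 genes of the whole table were called without any one library. Robust variances gave 13 called genes, and leaving out CFA replicate 2 and saline replicate 3 together, chosen after seeing the data, gave 21, against 7. With the replicate number as a block, 1 gene of the table and 0 members were called, and Nfkbia had an adjusted p of 0.58. The deviations of same-numbered libraries correlated at 0.0803, 0.111 and −0.0475, so the numbers were not taken as pairs. Nfkbia kept a negative log2 fold change in all 17 fits (−0.53 to −0.37, adjusted p 0.284 to 0.710). The sign was reversed for Nfkb2 (−0.065 to 0.27 with single libraries left out, and −0.12 without both libraries numbered 3) and for Rela (−0.0069 without both). The other 6 members kept their sign wherever they were tested. At an unadjusted limma p below 0.05 stood 2 of 9 members under quantile normalization (8.68% of all genes in that fit). The count was also 2 of 9 with the replicate block (7.72%) and without CFA replicate 2 (13%), and 1 in the other alternatives. Without single libraries, sizes moved by over 1.5 times from the main fit for Nfkb1 (−0.22 to −0.08), Nfkbiz (−0.11 to −0.015), Tnfrsf1a (−0.21 to −0.10) and Tnfrsf1b (0.12 to 0.26). The size of Rela moved by over 1.5 times as well (0.02 to 0.20), with its sign kept in these fits. Sizes of Il1r1 (−0.35 to −0.19) and Il1rap (0.06 to 0.12) also moved, by less than 1.5 times from the main fit. With a minimum of 5 FPKM only 3 members were tested, and without CFA replicate 1 Tnfrsf1b was not. The ratio differences kept their sign without any one library (0.34 to 0.63 for Tnfrsf1b to Tnfrsf1a, 0.42 to 0.68 for Il1rap to Il1r1), and were 0.32 and 0.37 with a pseudocount of 1. Pairing by replicate number leaves a mean difference the same by arithmetic (0.52 and 0.56), and its exact sign-flip p was 0.25 for each ratio, the smallest possible. With unknown depth and 3 libraries per group, small differences of genes near 1 FPKM could not be resolved.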
